A study of Mus musculus with 9 samples.

Results

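Malat1, Neat1, Meg3, Miat, Rmst, Snhg11, Gm45895, Gm20139 and Gm19667 are 9 long noncoding RNAs among the 37725 genes counted in single cells of the mouse retina. They were taken by name, and all 9 were in the count matrix. The name "abundant" fits them only in part: by the total of UMIs (unique molecular identifiers, each the tag of 1 captured RNA) Malat1 ranked 1 of the 37110 genes with a UMI and held 2.64% of all UMIs, Meg3 ranked 61 and Snhg11 103, whereas Gm45895 ranked 5265 and Miat 6011. The ranks of the others were 890 for Gm20139, 1307 for Rmst, 1701 for Gm19667 and 1950 for Neat1. The low ranks came with restriction to scarce cells: Gm45895 had a UMI in 2.13% of the 31089 cells and Miat in 4.76%.

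The retinas came from 9 mice that all carried RPE65-ERT2-Cre.miR-211fl.miR-204fl, in which both microRNAs are flanked by loxP sites, and which serve to ask what loss of miR-204 and miR-211 from the retinal pigment epithelium (RPE) does to the retina. All were injected for 5 days from postnatal day 28: 4 controls (S01 to S04) received corn oil, and 5 dKO (double knockout) mice (S05 to S09) received 75 mg/kg tamoxifen in corn oil, which activates the Cre. Retinas were taken 6 months after induction, with both retinas of a mouse as 1 sample, dissociated with papain and barcoded together by split pooling. Controls and dKO mice carry the same floxed alleles and the same Cre. That Cre is driven by a promoter of RPE cells, so the deletion was aimed at RPE and not at the neurons, glia or vessels. Only the dKO mice received tamoxifen, so an effect of the drug and one of the deletion cannot be told apart here. The retina was peeled from the eye cup before dissociation, and 343 cells were assigned to RPE here. The deletion itself could not be checked here, because neither mature microRNA was a gene of the matrix. The labels give S06 and S07 the same animal number.

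Long noncoding RNAs are transcripts without a known protein product, and many stay in the nucleus. Malat1 sits in nuclear speckles, where splicing factors gather, and Neat1 is the scaffold of another nuclear body, the paraspeckle. Meg3 is transcribed from the maternal copy of the imprinted Dlk1-Dio3 region together with Rian and Mirg. Miat is a nuclear RNA of neurons that binds splicing factors, Rmst is a neural RNA described with the transcription factor Sox2, and Snhg11 is the spliced host of small nucleolar RNAs. Gm45895, Gm20139 and Gm19667 are numbered gene models.

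The microRNAs that were floxed share their seed, bases 2 to 8 of the mature strand, shown in capitals because it is the part that pairs with targets. The RefSeq sequences (GRCm38.p6) differ at 1 position, 17 from the 5′ end.
mmu-miR-204-5p: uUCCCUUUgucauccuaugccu
mmu-miR-211-5p: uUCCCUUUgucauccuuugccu
The longest transcript of each lncRNA (GENCODE annotation of GRCm39) was searched on its own strand for AAAGGGA, the complement of this seed, and for AAAGGGAA, which contains it. Over all lncRNA transcripts of that annotation, 10.05% held AAAGGGA at least once. Meg3 held it 3 times, all in its last exon and 2 of them as AAAGGGAA; Malat1 and Snhg11 held it 2 times each, 1 of the Snhg11 matches as AAAGGGAA; Neat1, Rmst and Gm45895 held it 1 time each; and Miat, Gm20139 and Gm19667 did not hold these letters. Among lncRNA transcripts of like length (at least 0.8 for the shorter over the longer), 61.1% held it for Malat1, 53.2% for Snhg11, 28.5% for Rmst and 17.5% for Gm45895, and for Meg3 all 6 such transcripts held it. For Neat1 there were 3 such transcripts, of which 66.7% held it. For the members without AAAGGGA in the longest transcript the shares were 65.2% for Miat, 47.8% for Gm20139 and 32.05% for Gm19667. Of all 44 Gm20139 transcripts, 5 held it. AAGGGAA with no A before it was also counted. It occurred 1 time each in Gm20139, Gm19667, Malat1, Meg3 and Snhg11, and not in Miat, Neat1, Rmst or Gm45895. Among lncRNA transcripts of like length, 30.7% held AAGGGAA for Gm20139 and 25.03% for Gm19667. The matches below are the pair in Meg3 and that in Snhg11, which have the longest pairing, and that in Gm45895, the member measured chiefly in the cells where Cre acts; capitals mark the letters searched, and coordinates are those of AAAGGGA.
Meg3, chr12:109536368-109536374, plus strand, exon 5 of 5: tggaagtaaagAAAGGGAAgccaggggcc
Meg3, chr12:109536392-109536398, plus strand, exon 5 of 5: gggcctggcaaAAAGGGAAtgcttagatt
Snhg11, chr2:158227733-158227739, plus strand, exon 5 of 5: atggaaatgagAAAGGGAAtaagtgatgt
Gm45895, chr8:96637460-96637466, plus strand, exon 1 of 2: tggtgggctttAAAGGGAgagagaggttt
A match describes these letters only and is no evidence of binding.

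Cells were assigned to types by the UMIs of marker genes, none of which was among the 9 lncRNAs. Of the 31089 cells, 27360 passed exactly 1 gate, 2531 passed none and 1198 passed more than 1 and were left out. UMIs were summed per mouse and type wherever a mouse had at least 10 cells, and a level is given as counts per 1000000 UMIs of that type and mouse (CPM). This left 16 types, from 16161 rods to 82 microglia, and no astrocyte level, since only 27 cells passed that gate. All markers were detected in their own type. They were highest there for all markers of rods, cones, horizontal cells, microglia, pericytes and fibroblast-like cells. They were highest for 7 of 8 in ganglion cells, 6 of 7 in RPE and endothelial cells, 5 of 6 in rod bipolar cells and 5 of 7 in Müller glia. Fewer were highest in GABAergic amacrine (4 of 6), starburst (3 of 5), OFF cone bipolar (3 of 6), glycinergic amacrine (2 of 5) and ON cone bipolar cells (1 of 6). Most of these markers also set the gates, so their levels were partly fixed by the gating and do not test the assignment. Mice had 15079143 to 66528160 UMIs in all. S04, S05 and S07 stood apart, with 4775 to 5412.5 UMIs in the median cell against 8118 to 10340 in the other mice, and with Xist at 35.4 to 51.8 CPM against 1377 to 1570 CPM. These include mice of both groups. S06 and S07, which have the same animal number in the labels, had Xist at 1377 and 46.5 CPM. The main fits kept them as 2 mice. No cell name was shared between mice. Values are shares of the molecules of a type, so less RNA per cell and a larger share taken by other genes cannot be told apart.

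**Figure D1:**
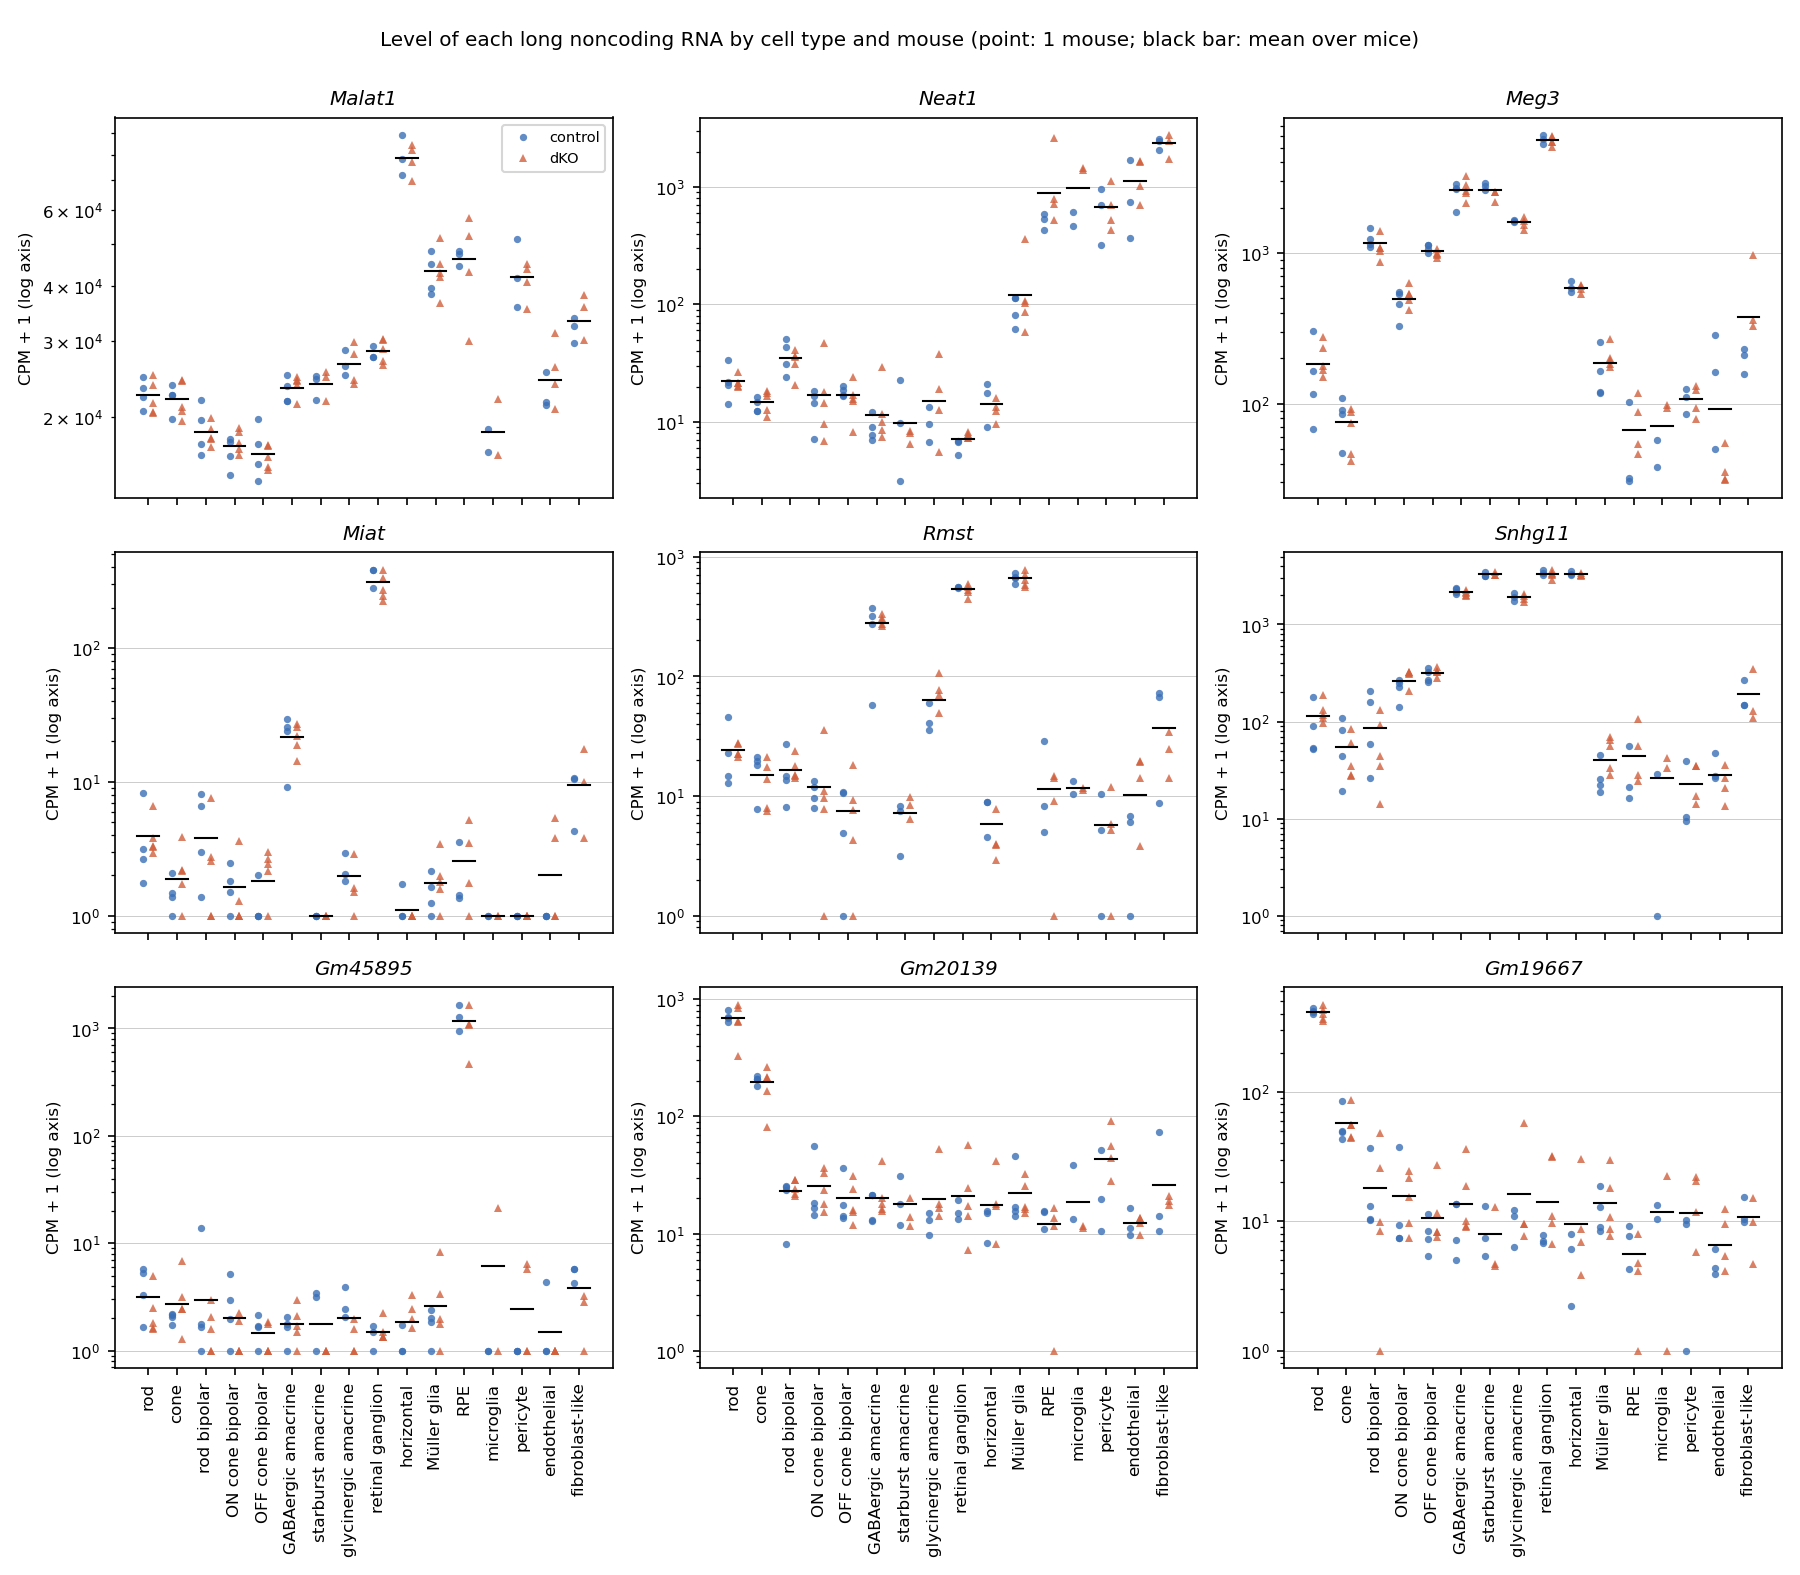
Level of each of the 9 lncRNAs (log10 axis, CPM + 1) in 16 cell types; each point is 1 mouse, coloured by group, and the bar is the mean over mice. Malat1 stayed within 4.79-fold between types, whereas Gm45895 stood in RPE at 1170 CPM against at most 5.11 CPM on average elsewhere.

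Malat1 (ENSMUSG00000092341, chr19:5845717-5853602, minus strand) was found in 100% of cells of every type and differed least between types. Its level was highest in horizontal cells, the laterally connecting interneurons of the outer retina, at 78938 CPM ± 6808 (SD, n = 7 mice), which is 7.89% of all their UMIs. RPE followed with 46121 ± 8611 CPM (n = 7), Müller glia, the radial glia of the retina, with 43237 ± 4806 CPM (n = 9) and pericytes with 41971 CPM. Horizontal cells ranged from 69774 to 89080 CPM over mice and did not overlap with RPE, whose highest mouse had 57405 CPM. The difference from RPE, 0.80 on the log2(CPM + 1) scale, had the same sign in 7 of 7 mice (two-sided exact sign-flip p = 0.0156, the lowest value 7 mice allow). RPE and Müller glia did not differ beyond their spread (difference 0.10, exact sign-flip p = 0.375). At the other end stood the bipolar cells, the relay from photoreceptors to ganglion cells: 18528 CPM in rod bipolar, 17157 in ON cone bipolar and 16465 ± 1658 CPM (n = 9) in OFF cone bipolar cells. Rods (22478 ± 1785 CPM) and cones (22042 ± 1829 CPM) lay between. Per kilobase of annotated exon, Malat1 in horizontal cells reached 10010 CPM, against 689 for Gm45895 in RPE and 393 for Snhg11 and 291 for Meg3 in ganglion cells, where each of these was highest.

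In the 4 types examined by depth, cells with more UMIs had a smaller Malat1 share on average. When the cells of each mouse were split into 4 equal groups by total UMIs, the deepest group had a lower Malat1 level than the shallowest by a mean of 0.33 (log2) in GABAergic amacrine cells, by 0.24 in Müller glia, by 0.20 in rods and by 0.12 in cones. The deepest group was higher in 0 of 9 mice for the first of these, in 0 of 9 for Müller glia, in 1 of 9 for rods and in 2 of 9 for cones. Other types were not split this way. Horizontal cells had a median of 38802.5 UMIs per cell and Müller glia 14819, and the part of depth in the order of types was not tested.

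Neat1 (ENSMUSG00000092274, chr19:5874736-5897132, minus strand), the neighbour of Malat1, was high in the nonneural cells: 2344 ± 385 CPM in fibroblast-like cells (n = 6), 1116 ± 548 in endothelial cells (n = 7), 984 ± 520 in microglia (n = 4), 883 ± 768 in RPE (n = 7) and 678 ± 286 CPM in pericytes (n = 7). Müller glia had 120 ± 92.2 CPM (n = 9). Neurons were low, from 33.9 ± 9.51 CPM in rod bipolar cells through 21.1 ± 5.33 in rods to 6.15 ± 0.919 CPM in retinal ganglion cells (n = 8), 381-fold under the fibroblast-like cells. The step from pericytes to Müller glia was 2.88 (log2) and present in 7 of 7 mice (exact sign-flip p = 0.0156), and that from Müller glia to rod bipolar cells was 1.61 and present in 9 of 9 (exact p = 0.00391). The order among endothelial cells, microglia, RPE and pericytes did not exceed the spread between mice. In fibroblast-like cells 92.3% of cells had a Neat1 UMI at a median depth of 8250 UMIs, whereas in ganglion cells 24.8% did at 50222. With cells thinned to 3000 UMIs, and shallower cells left out here and below, these shares were 84.9% of 372 and 1.47% of 475 cells.

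Meg3 (ENSMUSG00000021268, chr12:109506877-109538165, plus strand) was an RNA of inner retinal neurons. Retinal ganglion cells, whose axons form the optic nerve, had 5615 ± 352 CPM (n = 8; lowest mouse 5064, median 5593, highest 6094). Starburst amacrine cells, a cholinergic type, had 2605 ± 253 CPM (n = 6), the other GABAergic amacrine cells 2604 ± 401 (n = 9) and glycinergic amacrine cells 1598 ± 100 CPM (n = 7). The lowest ganglion cell value was above the highest amacrine value, 3227 CPM. Ganglion cells exceeded starburst cells by 1.14 (log2) in 6 of 6 mice (exact sign-flip p = 0.0312, the smallest that 6 mice can give), and GABAergic exceeded glycinergic amacrine cells by 0.71 in 7 of 7 (exact p = 0.0156). Starburst and other GABAergic amacrine cells were not separated. Bipolar cells split: rod bipolar cells had 1157 ± 185 CPM and OFF cone bipolar cells 1032 ± 70.8, but ON cone bipolar cells 496 ± 87.4 CPM (n = 9 each), with the highest ON value (628 CPM) under the lowest OFF value (926 CPM). Rods had 183 ± 75.2 CPM, Müller glia 186 ± 52.0, cones 74.1 ± 24.5 and RPE, the lowest, 66.1 ± 35.0 CPM. The rod and cone levels rested on few cells: 50% of the Meg3 UMIs of rods were in 0.594% of the rods, and of cones in 2.76% of the cones, against 8.38% of the cells in Müller glia.

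The genes whose type means were most like those of Meg3 lay beside it. Of the 8175 genes with at least 50 CPM in some type, the 3 with the highest Pearson correlation of mean log2(CPM + 1) across the 16 types were B830012L14Rik (0.99), Mirg (0.99) and Rian (0.98), all on the plus strand of chromosome 12, at 104546, 158033 and 32077 bases from Meg3. Types share mice and differ in depth, so these correlations are a description. Rian had 991 ± 103 CPM in ganglion cells, 451 ± 61.8 in GABAergic amacrine cells and 44.9 ± 15.2 in Müller glia. Mirg, which hosts a cluster of microRNAs, had 161 ± 11 CPM in ganglion cells, 77.2 ± 13.5 in GABAergic amacrine cells and 6.52 ± 3.49 in Müller glia. All of these followed the order of Meg3 itself over those 3 types.

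**Figure D2:**
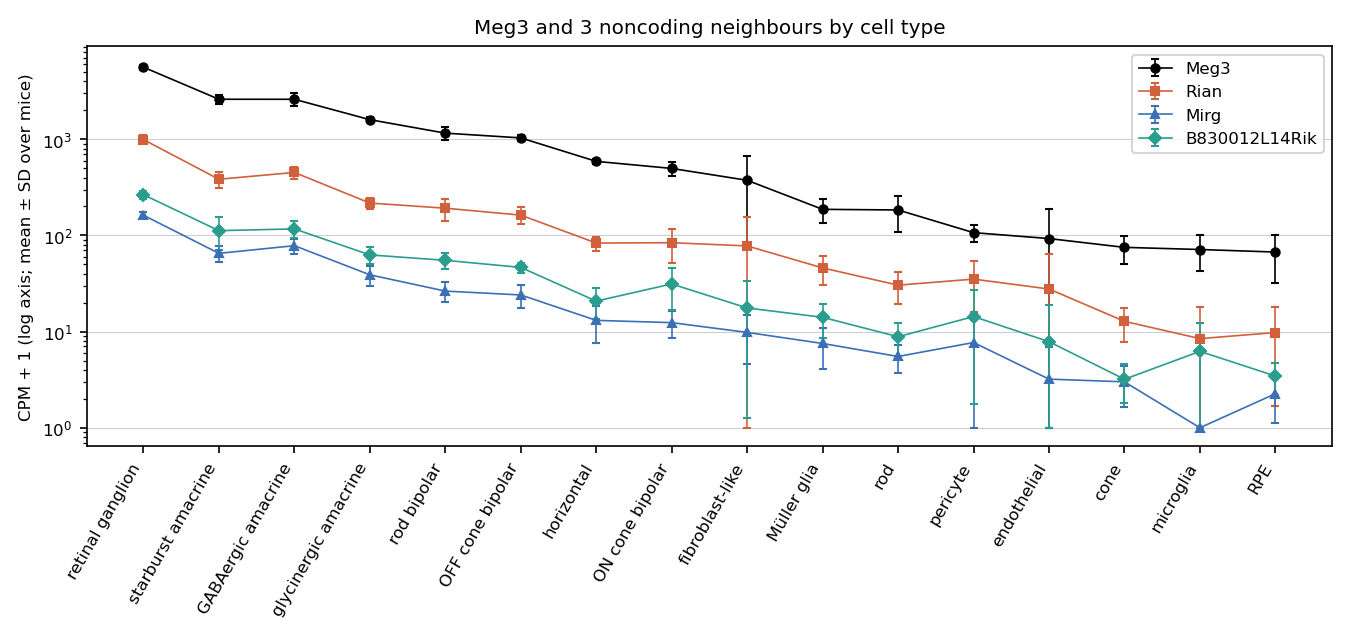
Mean level (log10 axis, CPM + 1) of Meg3, Rian, Mirg and B830012L14Rik in each cell type; error bars are SD over mice, with their lower ends stopped at 0 CPM. All 4 were highest in retinal ganglion cells, where Meg3 had 5615 CPM, Rian 991, B830012L14Rik 264 and Mirg 161.

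Snhg11 (ENSMUSG00000044349, chr2:158217558-158228071, plus strand) separated cells into a high and a low class. Ganglion cells (3349 ± 254 CPM, n = 8), horizontal cells (3300 ± 119, n = 7) and starburst amacrine cells (3286 ± 151, n = 6) had much the same level, with no difference beyond the spread between mice. With Malat1 and the mitochondrial genes taken out of the totals, ganglion cells came out under horizontal cells, by 0.041 (log2). GABAergic amacrine cells had 2155 ± 137 CPM and glycinergic ones 1916 ± 152. Starburst cells exceeded the other GABAergic cells by 0.60 (log2) in 6 of 6 mice, with an SD of only 0.049 (exact sign-flip p = 0.0312). The next step, from glycinergic amacrine to OFF cone bipolar cells (312 ± 36.5 CPM), was 2.59 (log2) and seen in 7 of 7 mice (exact p = 0.0156). ON cone bipolar cells had 261 ± 62.5 CPM, rods 112 ± 48.0, cones 53.4 ± 31.0, Müller glia 39.5 ± 19.1 and pericytes 21.8 ± 12.9 CPM. Again, a small share of photoreceptors held much of the sum: 50% of the Snhg11 UMIs were in 0.322% of the rods and in 0.702% of the cones, against 29.8% of the GABAergic amacrine cells. Horizontal cells thus had Snhg11 at the level of ganglion cells but Meg3, at 588 ± 40.0 CPM, between OFF and ON cone bipolar cells. The genes most like Snhg11 were Syn2 (a synaptic vesicle protein; Pearson r = 0.97 across 16 types), Iglon5 (0.97) and Vsnl1 (0.97).

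Miat (ENSMUSG00000097767, chr5:112361094-112377261, minus strand) was an RNA of ganglion cells. It had 310 ± 66.0 CPM there (n = 8; lowest 223, median 303, highest 382) and 20.8 ± 6.55 CPM in GABAergic amacrine cells (n = 9; 8.10 to 28.2), 15-fold less. The lowest ganglion cell value was far above the highest amacrine value, and the difference of 3.74 (log2) was seen in 8 of 8 mice (exact sign-flip p = 0.00781). Fibroblast-like cells had 8.43 ± 5.01 CPM, and the other 13 types at most 2.97 CPM. No Miat UMI was counted in the starburst amacrine, microglia or pericyte sums, and 3 counts, the limit a count of 0 allows, would be 0.959, 7.92 and 2.44 CPM there. Of ganglion cells, 99.8% had a Miat UMI at a median of 50222 UMIs per cell, against 0.481% of horizontal cells at 38802.5. Thinned to 3000 UMIs, 57.7% of ganglion cells and 5.64% of GABAergic amacrine cells had one. Gm26953, annotated on the other strand over 13956 bases of Miat, had 7.19 ± 2.03 CPM in ganglion cells and at most 0.915 CPM elsewhere; whether reads of the pair were told apart by strand is not given in the sources used here. The genes most like Miat were Clvs2 (r = 0.95), Stk32a (0.94) and Elavl2 (0.93), the last a neuronal RNA-binding protein.

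Rmst (ENSMUSG00000112117, chr10:91906899-92001132, minus strand) joined glia with inner neurons. Müller glia had 658 ± 71.9 CPM (n = 9), ganglion cells 536 ± 44.0 (n = 8), GABAergic amacrine cells 277 ± 89.1 (n = 9) and glycinergic amacrine cells 62.0 ± 24.7 CPM (n = 7), and all other types at most 36.1 CPM. Müller glia exceeded ganglion cells by 0.29 (log2) in 8 of 8 mice (exact sign-flip p = 0.00781), and ganglion cells exceeded GABAergic amacrine cells by 0.82 in 8 of 8 (exact p = 0.00781). A Rmst UMI was found in 96.4% of Müller glia, 97.7% of ganglion cells and 67.5% of GABAergic amacrine cells. Starburst cells, although GABAergic, had only 6.26 ± 2.28 CPM. Among GABAergic amacrine cells S04, one of the shallow mice, had 56.7 CPM, the lowest, against a highest of 373. Among the genes most like Rmst were Ephb1 (r = 0.94) and Scn9a (0.93).

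Gm45895 (ENSMUSG00000110634, chr8:96637202-96660670, plus strand, 2 exons) was nearly confined to RPE, the pigmented layer that renews photoreceptor outer segments. RPE cells had 1170 ± 419 CPM (n = 7 mice), with a lowest mouse at 462, a median of 1107 and a highest at 1664 CPM; the mean of every other type was at most 5.11 CPM, with the single highest mouse value, 20.4 CPM, resting on 2 UMIs in the microglia of S08. A UMI was found in 79.3% of the 343 RPE cells, at a median depth of 16069 UMIs, against 0.804% of rods at 4683 and 2.30% of ganglion cells at 50222, and in 0.804 to 3.66% of cells over the other types. RPE exceeded fibroblast-like cells, the next in order, by 8.27 (log2) in 6 of 6 mice (exact sign-flip p = 0.0312). Gm8637, a processed pseudogene on the same strand that shares 1085 bases with the Gm45895 locus, had 79.4 ± 25.2 CPM in RPE and at most 0.341 CPM in any other type, so the division of reads between the pair is uncertain. The genes most like Gm45895 were Gm50011, Pon1 and Dsp, a desmosome protein (r = 0.99 each).

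Gm20139 (ENSMUSG00000111052, chr10:18999995-19201565, plus strand) and Gm19667 (ENSMUSG00000099373, chr9:105347719-105357393, plus strand) were RNAs of photoreceptors. Gm20139 had 686 ± 166 CPM in rods, the cells of dim-light vision (n = 9; lowest 325 in S05, median 687, highest 897), and 195 ± 50.3 CPM in cones (n = 9; 80.3 to 261). Gm19667 had 410 ± 37.4 CPM in rods (351 to 471) and 56.1 ± 16.8 CPM in cones (42.6 to 85.9). For both, the lowest rod value was above the highest cone value. Rods exceeded cones by 1.82 (log2) for Gm20139 and by 2.89 for Gm19667, each in 9 of 9 mice (exact sign-flip p = 0.00391, the smallest that 9 mice can give). In the other 14 types the means were 11.1 to 42.2 CPM and 4.58 to 17.2 CPM. The gene most like Gm19667 was Gm20139 (r = 0.97), and those most like Gm20139 were Pdc (0.98), which encodes the photoreceptor protein phosducin, Pdzph1 (0.97) and 1810009A15Rik (0.97).

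Rod RNA was present in every type. The summed CPM of the 8 rod markers in nonphotoreceptor types was 1.67 to 3.02% of the rod level, Gm20139 was at 1.62 to 6.15% and Gm19667 at 1.12 to 4.20%. Values at the height of the markers are not read as expression, and the part of rod RNA in them was not tested. The 6.15% of Gm20139 in pericytes rested on 56 UMIs. Cones stood apart: rod markers were at 3.68% of the rod level, but Gm20139 at 28.4% and Gm19667 at 13.7%. In single mice the cone share of the rod level was 2.78 to 4.78% for the markers, 24.7 to 34.2% for Gm20139 and 10.6 to 20.2% for Gm19667, so that neither lncRNA overlapped with the markers in any mouse. Atp2c1, a protein-coding gene on the opposite strand that spans all 9675 bases of Gm19667, was highest in rod bipolar cells (377 ± 34.0 CPM), with rods at 261 ± 14.3 and Müller glia lowest at 66.0 ± 10.3 CPM. Its order of types was not that of Gm19667. As for Miat and Gm26953, the sources used here do not give whether reads of the pair were told apart by strand.

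**Figure D3:**
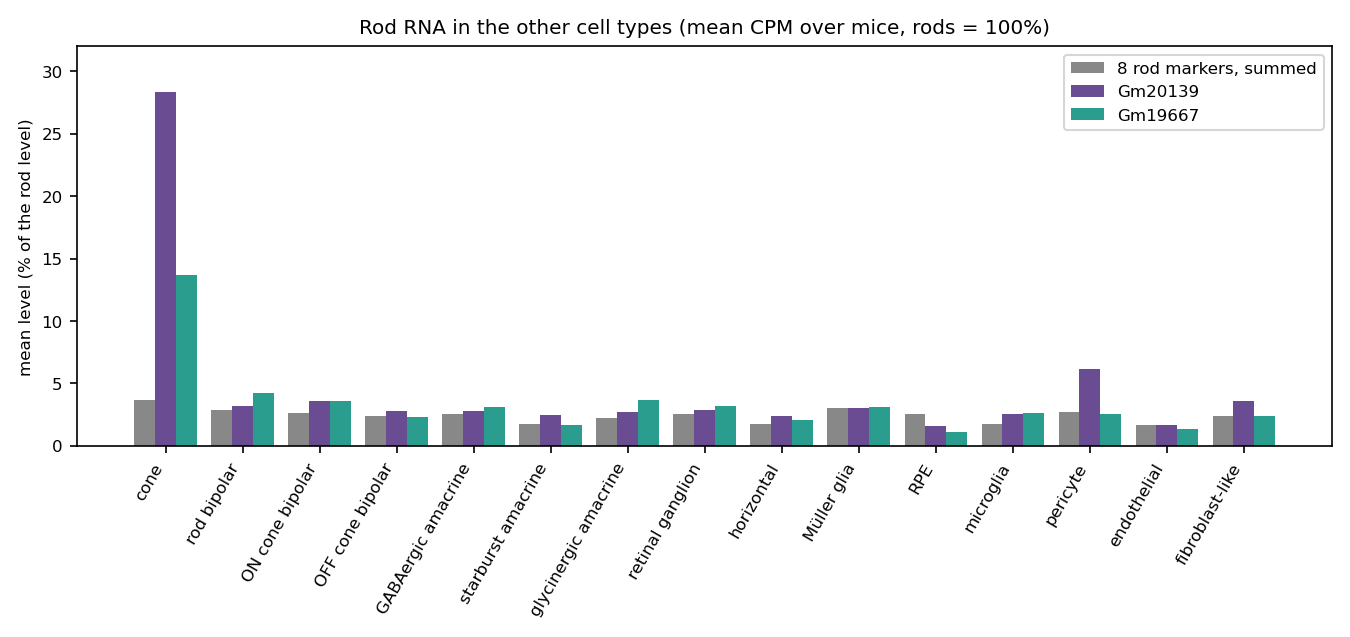
Mean level in each type, as a percent of the mean level in rods, of the 8 rod markers summed, Gm20139 and Gm19667. Cones kept 28.4% of the rod level of Gm20139 and 13.7% of that of Gm19667, against 3.68% of the rod markers, while most other types stayed near the markers.

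Neighbouring types in the order of a member made 135 pairs, and 30 had an unadjusted exact sign-flip p under 0.05. After Benjamini-Hochberg adjustment over the 135 pairs, 0 passed, the smallest adjusted p being 0.1055. The exact sign-flip p cannot go under 0.00391 with 9 mice, 0.0156 with 7 or 0.0312 with 6. A step of any size, seen in every mouse, can therefore fail over so many pairs. Failing the adjustment does not show that the types of a pair had the same level.

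For 3 pairs of types, all genes were fitted together (edgeR quasi-likelihood test on the sums, with mouse as a block, and with a call at Benjamini-Hochberg adjusted p under 0.05 and over 1 in absolute log2 fold change). Between GABAergic amacrine cells and rods 46.5% of the 15806 genes tested were called, and of the 9 lncRNAs 8 were: Meg3 (log2 fold change 3.85, SE 0.15, adjusted p = 3.28e-12), Snhg11 (4.29, SE 0.21), Rmst (3.53, SE 0.20) and Miat (2.74, SE 0.23) were higher in amacrine cells, and Gm20139 (-5.43, SE 0.20), Gm19667 (-5.24, SE 0.20), Gm45895 (-1.60, SE 0.40) and Neat1 (-1.21, SE 0.24) lower. Malat1 was at -0.025 (SE 0.064). With that many genes called, 8 of 9 describes how unlike these cells are and is no property of the list.

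Between Müller glia and rods 46.8% of 16080 genes were called. Rmst (log2 fold change 4.91, SE 0.15, adjusted p = 2.78e-14) and Neat1 (2.30, SE 0.20) were higher in Müller glia, while Gm20139 (-5.37), Gm19667 (-5.31), Miat (-2.08) and Snhg11 (-1.49) were lower. Malat1 was higher by 0.96 (SE 0.07, edgeR adjusted p = 3.35e-09), just under the required fold. Meg3 was at 0.084 (SE 0.10). Between RPE and Müller glia 38.9% of 13381 genes were called: Gm45895 was higher in RPE by 9.80 (SE 0.32, adjusted p = 3.20e-15) and Neat1 by 3.05 (SE 0.22), and Rmst (-5.73, SE 0.24) and Meg3 (-1.36, SE 0.18) were lower. Malat1 (0.21), Snhg11 (0.033), Gm20139 (-0.034) and Gm19667 (-0.54) passed neither way.

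Genes that work with these RNAs were counted in the same fits, in which 46.5%, 46.8% and 38.9% of all genes were called. Of the 5 genes listed for the Dlk1-Dio3 region besides Meg3, 3 were tested between GABAergic amacrine cells and rods and all were higher in amacrine cells: Mirg by 3.98, Rian by 3.92 and Rtl1, a retrotransposon-derived gene of that region, by 3.23 (median 3.92, against -0.05 over all genes tested). Between RPE and Müller glia the 2 tested were lower in RPE, Rian by 1.98 and Mirg by 1.69 on the log2 scale. Of 5 reported protein partners of Miat and Rmst, 1, 2 and 3 were called in the 3 contrasts. Celf3 was higher in GABAergic amacrine cells than in rods (2.22). Sox2, a progenitor and glial transcription factor, and the RNA-binding protein Qki were higher in Müller glia than in rods (5.67 and 1.38). Both were lower in RPE than in Müller glia (-6.59 and -1.53). Rmst went the same way in these 2 contrasts, whereas Miat was lower in Müller glia than in rods. Starburst cells were among the 3 types with most Sox2, but had Rmst at only 6.26 CPM. Sf1, a splicing factor, was at 1.01 in RPE against Müller glia, at the edge of the required fold; by library size alone the median of all genes in this contrast moved from -0.05 to -0.25. The nuclear speckle proteins gave 0, 1 and 0 calls of 10 in the 3 contrasts, the 1 being Srsf5, higher in Müller glia than in rods by 1.04. The paraspeckle proteins gave 1, 0 and 0 of 11, the 1 being Hnrnph3, lower in amacrine cells by 1.05 on the log2 scale.

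In the comparison of dKO with control mice within each of 10 types, 0 of the 9 lncRNAs passed the test (edgeR quasi-likelihood, adjusted p under 0.05). The background was the same: 0% of genes were called in each type but ON cone bipolar cells, where 0.00949% were, that is 1 gene, Egfem1, of 10534 (log2 fold change 1.30, edgeR adjusted p = 0.0474; named because it was the only call). No gene was called there in 8 of the 9 fits that left out 1 mouse, nor by limma-voom, with the stricter gate, with Xist level as covariate, with S06 and S07 summed, without S04, S05 and S07, or without the 5% of cells of most UMIs. At an unadjusted p under 0.05 there were 431 of 13974 genes in rods, 260 of 13156 in Müller glia and 451 of 9791 in RPE. In data simulated on these sums, a log2 change of 2 was recovered for 100% of genes in rods, 94% in Müller glia and 95% in RPE. A change of 1 was recovered for 64, 56 and 51%, with 8, 13 and 17 false calls among the unchanged genes. The simulated counts were drawn for whole sums and not cell by cell. These shares are averages over genes picked at random and are not those of the 9 lncRNAs.

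RPE, where the Cre acts, was compared in 3 control and 4 dKO mice, because S04 had no gated RPE cell (0 of 2711 cells, which allows up to 0.111%) and S05 had 3. Gm45895 was at 1664, 944 and 1268 CPM in controls S01, S02 and S03, and at 462, 1657, 1107 and 1088 CPM in dKO mice S06 to S09. The lowest value was that of a dKO mouse, and the groups overlapped, since S07, S08 and S09 were all above control S02. In S07 41 of the 63 Gm45895 UMIs were in 1 cell (65.1%, exact binomial 95% interval 52.0 to 76.7%). The log2 fold change was -0.41 (SE 0.32; edgeR unadjusted p = 0.221), and with single mice left out it ran from -0.62 without S02 to -0.15 without S06. Neat1 was at 428, 536 and 583 CPM in the controls and at 523, 2603, 790 and 716 CPM in the dKO mice. All dKO mice but S06 were above the controls. The log2 fold change was 0.84 (SE 0.35; edgeR unadjusted p = 0.0321, adjusted p = 1). In S07, with 12 RPE cells, 91 of the 99 Neat1 UMIs were in 1 cell (91.9%, exact binomial 95% interval 84.7 to 96.4%, for counting error only). Without S07 the log2 fold change was 0.42, and with the 5% of cells of most UMIs left out it was -0.083.

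**Figure D4:**
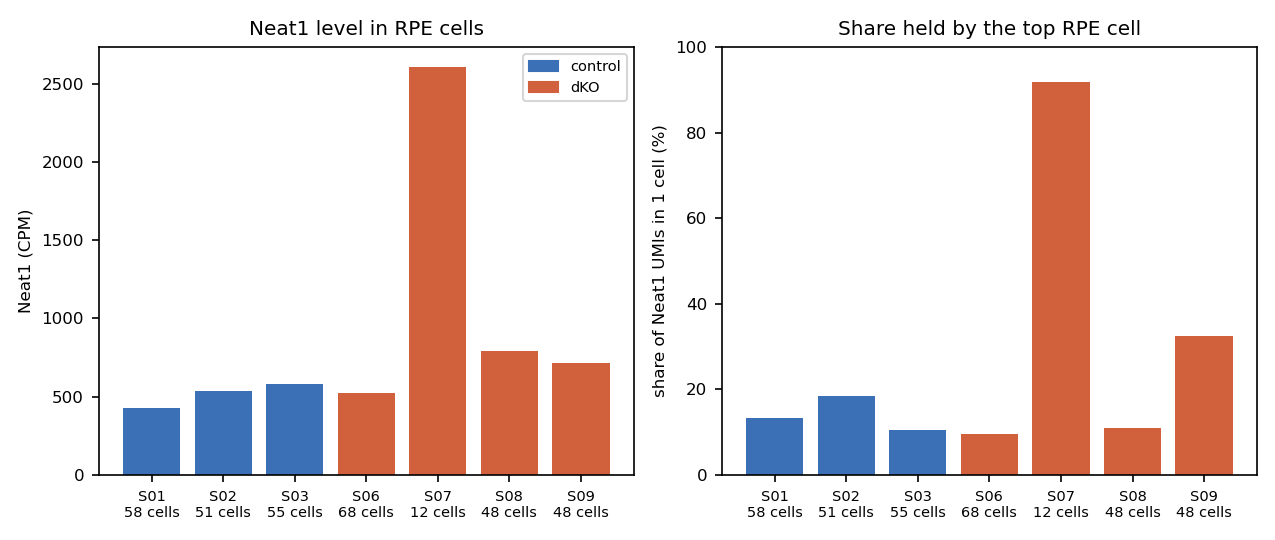
Neat1 in RPE cells by mouse: level (left, CPM) and the percent of its UMIs held by the single cell with most (right), with the number of RPE cells under each bar. S07, with 12 cells, had 2603 CPM, and 91.9% of its Neat1 UMIs came from 1 cell.

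The other members tested in RPE did not pass the test: Meg3 had a log2 fold change of 0.71 (SE 0.41; edgeR unadjusted p = 0.101), Snhg11 0.43 (SE 0.43), Malat1 -0.060 (SE 0.47), Rmst -0.027 (SE 0.57), Gm20139 0.014 (SE 0.32) and Gm19667 -0.25 (SE 0.47), and Miat had too few counts to be tested. With single mice left out, the log2 fold change of Meg3 ran from 0.37 to 1.43. The RPE cells of 2 dKO mice were unlike the others in depth: the median RPE cell had 2040.5 UMIs in S07 and 2656.5 in S09, against 9643 to 27805 in the other 5 mice. Their median Malat1 level per cell was 12850 and 10303 CPM, against 40561 to 53425 CPM in those 5. The summed Malat1 level of S09 was nevertheless 52224 CPM, and 31.3% of its Malat1 UMIs (exact 95% interval 30.9 to 31.8%) were in 1 cell. The part of depth in these results was not tested.

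In Müller glia 7 members could be tested in 4 control and 5 dKO mice. Snhg11 was at 24.7, 44.4, 21.5 and 17.8 CPM in controls S01 to S04 and at 67.9, 64.2, 55.6, 32.1 and 27.4 CPM in dKO mice S05 to S09. The groups overlapped through control S02. The log2 fold change was 0.62 (SE 0.30; edgeR unadjusted p = 0.0544), and -0.044 with a stricter gate. Neat1 was at 112, 61.2, 113 and 80.1 CPM in controls and at 359, 102, 56.8, 107 and 85.8 CPM in dKO mice, with S05 far above the rest. Its log2 fold change was 0.40 (SE 0.40). In S05 99 of 148 Neat1 UMIs were in 1 of 34 cells (66.9%, exact 95% interval 58.7 to 74.4%). Malat1 (0.014, SE 0.13), Rmst (-0.054, SE 0.11), Meg3 (0.21, SE 0.20), Gm20139 (0.10, SE 0.28) and Gm19667 (0.18, SE 0.38) did not pass the test either.

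In rods all 9 members were tested. Malat1 had a log2 fold change of -0.075 (SE 0.11), Gm19667 -0.10 (SE 0.10), Gm20139 -0.12 (SE 0.23), Neat1 -0.074 (SE 0.20), Rmst -0.020 (SE 0.30), Miat 0.089 (SE 0.54), Meg3 0.27 (SE 0.32) and Snhg11 0.43 (SE 0.32). With single mice left out, Meg3 ran from 0.028 to 0.75 and Snhg11 from 0.24 to 0.93. Gm45895, near the background level in rods, was at 4.76, 4.34, 2.32 and 0.651 CPM in controls and at 0.609, 1.51, 0.818, 3.91 and 0.619 CPM in dKO mice. Controls S01 and S02 were the highest, and the groups overlapped. Its log2 fold change was -1.12 (SE 0.61; edgeR unadjusted p = 0.0904).

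**Figure D5:**
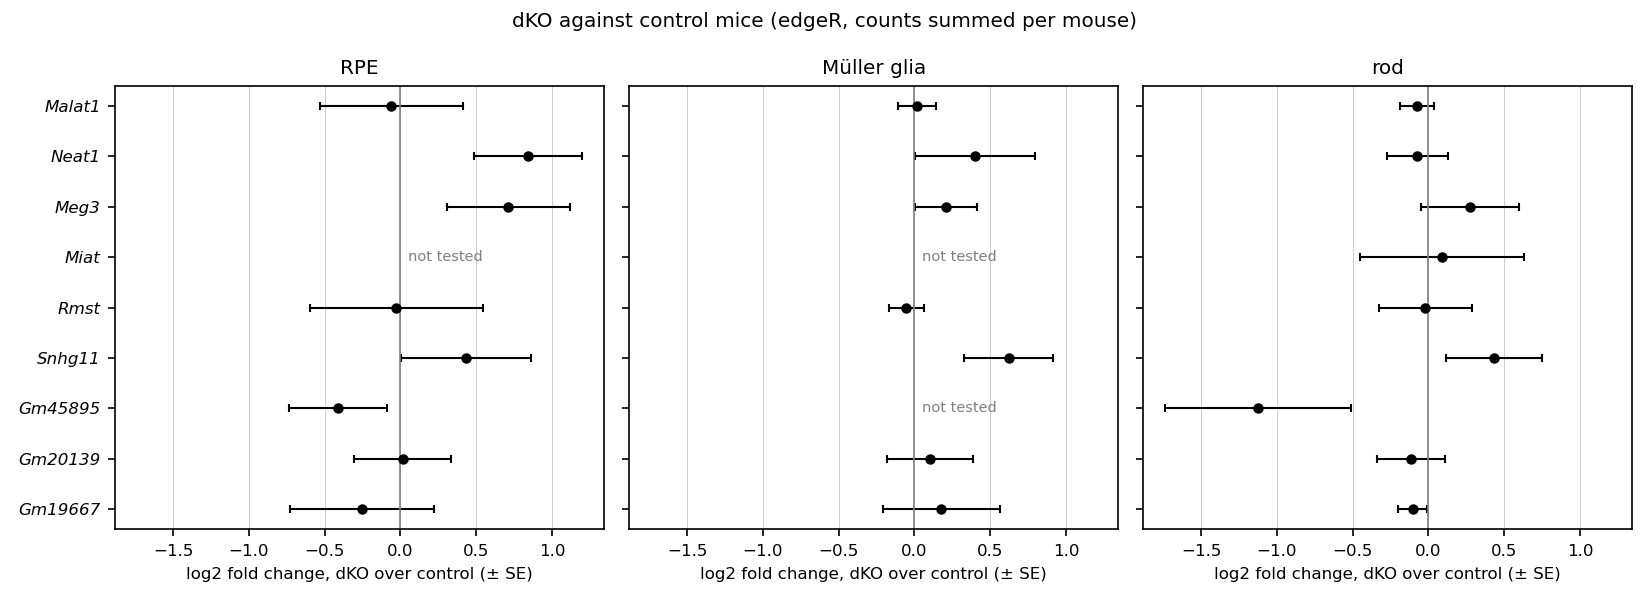
Log2 fold change of dKO against control for each lncRNA in RPE, Müller glia and rods, with bars of 1 SE (edgeR). Members with too few counts in a type are marked as not tested. None passed the test; in RPE the values ran from -0.41 for Gm45895 to 0.84 for Neat1.

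In each of the other 7 types the member with the lowest unadjusted p was as follows. Rmst had a log2 fold change of -0.62 in cones (edgeR unadjusted p = 0.0589), which turned to 0.060 with the 5% of cells of most UMIs left out. In glycinergic amacrine cells Rmst was at 0.70 (SE 0.23, edgeR unadjusted p = 0.0106). Meg3 was at -0.18 in rod bipolar (edgeR unadjusted p = 0.169) and -0.12 in OFF cone bipolar cells (edgeR unadjusted p = 0.229). Snhg11 was at 0.37 in ON cone bipolar cells (edgeR unadjusted p = 0.0284). Neat1 was at 0.78 in GABAergic amacrine cells (edgeR unadjusted p = 0.0803), where S08 had 28.3 CPM against 6.07 to 11.2 CPM in the other 8 mice; without S08 the log2 fold change was 0.089. Gm19667 was at 1.38 in ganglion cells (SE 0.52; edgeR unadjusted p = 0.0214): S05 and S07 had 30.2 and 30.9 CPM, against 5.64 to 9.96 CPM in the other 6 mice. Those mice also had the most rod marker RNA in ganglion cells, 855 and 964 CPM, against 220 to 301 CPM in the other 6. Without S05 and S07 the log2 fold change was 0.40. The part of rod RNA in this difference was not tested.

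Control and dKO values did not overlap for a few members. In ganglion cells Neat1 was at 4.20 to 5.85 CPM in 3 controls and at 6.30 to 7.14 CPM in 5 dKO mice; 3.03% of genes with at least 10 UMIs there did not overlap. The fitted log2 fold change was 0.30 (SE 0.24; edgeR unadjusted p = 0.237). In types that were not tested, with 2 or 3 mice a group, the groups did not overlap for Meg3 in starburst amacrine cells (background 8.84%), for Meg3 in fibroblast-like cells (10%) and for Neat1, Meg3, Snhg11 and Gm20139 in microglia (34.6%, with 2 mice against 2), where Gm20139 had 7 UMIs in all, fewer than the 10 required of the genes behind that share. For Gm45895 they did not overlap in fibroblast-like cells or, against 4.55%, in glycinergic amacrine cells, where it had 7 and 17 UMIs in all, so the share for fibroblast-like cells is not one for a gene this low.

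Whether an effect differed between types was tested directly for RPE against Müller glia, RPE against rods and Müller glia against rods, for each of the 9 members (27 exact permutation tests of the group labels, two-sided). The lowest p was 0.151, for Gm45895 in Müller glia against rods, and the adjusted p was 0.865 for all of them. With 3 and 4 mice the exact permutation test cannot go under p = 0.0286. The difference of the Neat1 effect between RPE and rods was 1.02 on the log2 scale (exact permutation p = 0.257), and that of the Gm45895 effect between RPE and Müller glia was -0.21 (exact permutation p = 0.771). None of the 6 lists of related genes held a call in the dKO comparisons. The lowest unadjusted p among them was that of the splicing factor Srsf2 in OFF cone bipolar cells (log2 fold change -0.57, SE 0.15; edgeR unadjusted p = 0.000989), and in RPE Rian was at 1.49 (SE 0.49; edgeR unadjusted p = 0.00883, adjusted p = 0.946).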

How the data were processed

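Raw UMI counts per cell and gene were deposited by the authors, who made them with split-pipe v1.0.4 on GRCm39 (release 109); the submitters' processing notes also name R 4.2.2 and Seurat 4.3.0. Each cell's counts summed to its listed total in all 31089 cells, and no removal of doublets is named in the sources used here; cells that passed more than 1 gate were left out. The cells came from 9 mice of 1 genotype (4 control, 5 dKO), and the mouse was the replicate. Gates on UMIs per 10000 were set on marker genes alone, and their thresholds after the marker UMIs had been seen. The members, lists and tests were chosen with earlier results of these data known.

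UMIs were summed per mouse and type and tested with edgeR 4.0.16 (quasi-likelihood, TMM, filterByExpr, Benjamini-Hochberg over all genes; R 4.3.3), after a test on simulated data. Type means used log2(CPM + 1), with exact sign-flip tests between neighbouring types and exact permutation tests of effect differences (scipy 1.17.1, numpy 2.4.6, pandas 2.3.3). All 9 members were named; fold changes were given for every member in RPE, Müller glia and rods and for the member of lowest p elsewhere, and likeness for the 3 genes of highest Pearson correlation, 1 of which is not reported here. Alternatives were DESeq2 1.42.0, limma 3.58.1 (voom), library size alone, no filter on low counts, totals without Malat1 and mitochondrial genes, a pseudocount of 10, a stricter gate (marker thresholds multiplied by 2), leaving out the top 5% of cells by UMIs, each mouse, or S04, S05 and S07 together, S06 and S07 summed as 1 mouse, and Xist level as covariate. A level rests on 10 cells or more of a mouse. Counting error is all that the intervals and limits include.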

Additional observations from a re-analysis of the deposited data

Results flagged for a closer look

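The highest and lowest mouse of a group of 4 or more was compared with the others (Dixon's gap over range, 95% critical value) for all members in rods, Müller glia and RPE, and elsewhere for members in the type where they were highest, had a fold change reported or had groups that did not overlap. Of these 63 groups 9 held a mouse that stood apart, where chance gives about 1 in 20 groups; other groups were not examined. Neat1 stood apart in 4 of the 9. Among dKO mice it was 25.7 CPM in the rods of S06, against 18.7 to 20.3 CPM in the others, 359.1 CPM in the Müller glia of S05, against 56.8 to 107 CPM, 2603 CPM in the RPE of S07, against 523 to 790 CPM, and 28.3 CPM in the GABAergic amacrine cells of S08, against 6.37 to 10.6 CPM. The values of S05 and S07 rested mostly on 1 cell each (66.9% and 91.9% of the Neat1 UMIs). In the same Müller glia of S05, Meg3 was at 266.9 CPM, against 175 to 200.1 CPM. In rods of dKO mice Miat was at 5.56 CPM in S06, against 1.96 to 2.81 CPM, and Gm45895 at 3.91 CPM in S08, against 0.609 to 1.51 CPM; both are low levels. In ON cone bipolar cells of dKO mice Snhg11 was lowest in S05, at 205.4 CPM, against 305 to 324 CPM. Among controls, Gm20139 was at 44.5 CPM in the Müller glia of S04, against 13.2 to 15.8 CPM. This came from 10 UMIs in 19 cells, and the rod markers were at 748 CPM in those cells, against 257 to 344 CPM in the other controls. The part of rod RNA was not tested.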

How the results depend on the processing

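No paired analysis was possible because controls carry the numbers 1 to 4 and dKO mice 5 to 9, so the groups share no replicate number. The alternatives were run for each tested member in rods, Müller glia and RPE and for the member of lowest p in each of the other 7 types. Of these none passed the test of dKO against control except without the filter on low counts, where Rmst in glycinergic amacrine cells (log2 fold change 0.69, edgeR adjusted p = 0.0166) and Gm19667 in ganglion cells (1.36, adjusted p = 0.00032) did. Few RPE cells, 2 shallow RPE samples and single cells that hold most UMIs of a member limit these comparisons, and low sums limit Miat and Gm45895 outside their own types.

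The number of genes called for dKO against control was small in most settings. Without the filter on low counts it was 60 in cones, 54 in rod bipolar, 102 in ON cone bipolar, 19 in OFF cone bipolar, 46 in GABAergic amacrine, 64 in glycinergic amacrine, 136 in ganglion cells, 17 in Müller glia and 75 in RPE; far more low genes were then tested. DESeq2 called 2 in rods, 2 in ON cone bipolar and 6 in ganglion cells, and limma-voom 1 in cones and 0 in ON cone bipolar cells. Without S04, S05 and S07 it was 1 in cones, 0 in ON cone bipolar, 3 in GABAergic amacrine cells and 1 in Müller glia; with Xist level as covariate 0 in ON cone bipolar and 2 in GABAergic amacrine cells; with S06 and S07 summed 0 in ON cone bipolar cells. The stricter gate gave 0 in ON cone bipolar, 1 in ganglion cells and 2 in RPE, and leaving out the top 5% of cells 1 in cones, 0 in ON cone bipolar cells and 11 in RPE. Leaving out each mouse in turn gave 0 to 1 in rods, cones, ON cone bipolar, glycinergic amacrine cells and Müller glia, and 0 to 10 in RPE, the 10 without control S02 and 3 without dKO S09. The cause was not tested.

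Several dKO fold changes turned sign, among them Neat1 in RPE, Snhg11 in Müller glia and Rmst in cones, which had unadjusted edgeR p of 0.0321, 0.0544 and 0.0589. In rods, without S04, S05 and S07, Malat1 was at 0.033, Meg3 at -0.087, Miat at -0.089 and Gm20139 at 0.11; Neat1 was at 0.011 by limma-voom, 0.025 with Xist level, 0.12 with the stricter gate and 0.085 without the top cells; Miat was at -0.11 with S06 and S07 summed; Rmst was at 0.20 by limma-voom, 0.010 by library size alone and 0.077 with Xist level; and Snhg11 at -0.0044 with the stricter gate. In cones Rmst was at 0.060 without the top cells. In Müller glia the stricter gate gave Neat1 -0.042, Meg3 -0.058, Rmst 0.043, Snhg11 -0.044 and Gm20139 -0.051; Rmst was at 0.079 without the top cells; Gm20139 was at -0.0023 with S06 and S07 summed and -0.083 with Xist level; and Gm19667 was at -0.048 by limma-voom, -0.18 without S04, S05 and S07, -0.042 with S06 and S07 summed and -0.13 with Xist level. In RPE Malat1 was at 0.15 without S04, S05 and S07, 0.15 with S06 and S07 summed and 0.17 with Xist level; Neat1 at -0.083 without the top cells; Rmst at 0.30 by limma-voom, 0.75 with Xist level, 0.33 with the stricter gate and 0.70 without the top cells; and Gm20139 at -0.041 by DESeq2 and -0.0051 with no filter.

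With each mouse left out in turn, signs turned for 13 of these. In rods Neat1 ran from -0.24 to 0.19, Miat from -0.27 to 1.05, Rmst from -0.23 to 0.49 and Gm20139 from -0.23 to 0.064. In Müller glia Malat1 ran from -0.081 to 0.074, Neat1 from -0.062 to 0.57, Rmst from -0.11 to 0.0021, Gm20139 from -0.050 to 0.24 and Gm19667 from -0.15 to 0.37. In RPE Malat1 ran from -0.23 to 0.15, Rmst from -0.53 to 0.95, Snhg11 from -0.0010 to 1.05 and Gm20139 from -0.17 to 0.16.

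The contrasts between types kept every call of a member. Signs turned for members that had passed neither way: between amacrine cells and rods Malat1 was at 0.059 by library size alone; between RPE and Müller glia Snhg11 was at -0.073 by DESeq2, -0.15 by library size alone and -0.089 with no filter, Gm20139 at 0.091 with the stricter gate, and over single mice left out Malat1 ran from -0.11 to 0.37 and Snhg11 from -0.50 to -0.0081. The TMM reference moved with it: without any 1 of the 6 mice other than S07 it was the shallow RPE sum of S07, and the mean log2 scaling factor of RPE over Müller glia was 0.15 to 0.17, against -0.10 with all 7 mice and -0.18 without S07, so RPE values fell by that scale against Müller glia. The median of all genes, -0.05 with all mice and -0.06 without S07, was then -0.36 to -0.37, and genes called higher in RPE fell from 2381 of 5205 to 1779 of 5416 without S06, so calls just over the required fold, such as Sf1, are not firm. Over single mice left out, Gm45895 between Müller glia and rods ran from -1.23 to -0.49 and passed the test without S05 or S06, and Gm19667 between RPE and Müller glia (-1.07 to -0.52) passed it without S03. The highest type of each member stayed above the next, except Snhg11, where ganglion cells over horizontal cells was -0.041 with totals without Malat1 and mitochondrial genes. The lead of ganglion over GABAergic amacrine cells for Miat was 3.30 with a pseudocount of 10 and 4.72 with the stricter gate, and that of RPE over fibroblast-like cells for Gm45895 was 6.34 with a pseudocount of 10.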

Other observations

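Some other long noncoding RNAs on the lists also differed between types. Six3os1, the antisense neighbour of the eye-field gene Six3, was higher in Müller glia than in rods by 5.35 (log2 fold change, edgeR, SE 0.12) and in GABAergic amacrine cells than in rods by 2.45 (SE 0.12). Vax2os was lower than in rods in both, by -4.13 in amacrine cells and -2.51 in Müller glia, and was lower still in RPE than in Müller glia (-1.08). The hosts of the neuronal microRNA miR-124, Mir124a-1hg and Mir124-2hg, were lower in Müller glia than in rods (-4.65 and -4.07) and lower in amacrine cells than in rods (-1.73 and -1.39). Norad was higher in GABAergic amacrine cells (2.80) and Müller glia (1.19) than in rods, and higher in RPE than in Müller glia (1.35). Of the 9 RNAs of this list, 6 were called in each of the first 2 contrasts and 3 in the third, where 46.5%, 46.8% and 38.9% of all genes were. With that many genes called, these counts describe how unlike the cells are and are no property of the list.

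Among hosts of small nucleolar RNAs other than Snhg11, Snhg14, a brain-expressed imprinted transcript, was higher in GABAergic amacrine cells than in rods by 4.01 (log2, SE 0.16), near the 4.29 of Snhg11. Snhg18 was higher in Müller glia than in rods by 5.61 (SE 0.30) and lower in RPE than in Müller glia (-5.54, SE 0.50), and its mean level was highest in pericytes, at 29.9 CPM, against 11.5 CPM in Müller glia. Snhg6 (2.38), Snhg12 (1.55), Snhg15 (1.39) and Snhg1 (1.20) were higher in RPE than in Müller glia, and Snhg5 was lower (-1.15). In amacrine cells against rods 2 of 13 tested hosts were higher and 3 lower, where 46.5% of all genes were called.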
